A study of Homo sapiens with 8 samples.

Results

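Mammalian cells adjust the transcription of amino acid carriers to the amino acids around them. The genes described here encode 10 such carriers that do not belong to system L, the exchangers that bring leucine, isoleucine and valine into the cell. They were chosen by name, as the cystine, cationic, neutral and glycine carriers whose transcripts are known to respond to amino acid shortage: SLC7A11, SLC7A1, SLC7A3, SLC38A1, SLC38A2, SLC1A4, SLC1A5, SLC6A9, SLC36A1 and SLC36A4. Values were analysed for 9 of the 10, out of 25431 genes listed for 769-P cells and 24190 for CAKI-1 cells, and all 9 passed the filter on low values in both cell lines. SLC7A3, the cationic carrier CAT3, was not among the genes listed for either line, so it could not be analysed. Earlier results of these data were known when the genes were chosen.

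RNA of 769-P and CAKI-1, both established lines of human clear cell renal cell carcinoma, was sequenced to ask how branched-chain amino acids (BCAA) alter gene expression in renal cancer cells. The 4 groups, with 2 libraries each, were 769-P with BCAA, 769-P without BCAA, CAKI-1 with BCAA and CAKI-1 without BCAA. The groups with BCAA were given 0.38 mM leucine, 0.38 mM isoleucine and 0.17 mM valine over 16 hours. According to the methods of the study, BCAA-depleted medium was made from RPMI powder free of amino acids with 10% dialyzed serum, and the text used here does not say whether the other amino acids were added back in both arms. Before the experiment 769-P was kept in RPMI and CAKI-1 in MEM, each with 10% serum, so the move to depleted RPMI was not the same step for both lines. The labels do not say whether the libraries of a group came from separate cultures. If they did not, the p-values below measure only the spread between these libraries and not that between cultures.

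Each table gave a normalized read count per gene, which is the number of reads divided by a size factor of the library. The libraries held from 30979773 to 64256834 reads over the genes listed. Both 769-P libraries with BCAA (64256834 and 55829324 reads) were deeper than those without (39062721 and 40130258), so depth and condition went together in this line. The renal lineage factor PAX8, the keratin KRT8 and vimentin were present in all libraries of both lines, with at least 8345, 3849 and 66423 reads respectively. The renal carcinoma antigen CA9 was not among the genes listed for either line. Of the 14 renal and epithelial markers listed, 13 were tested in 769-P and 12 in CAKI-1, where PAX2 (751 to 1537 reads in 769-P) was not among them. Several were near 0 in 769-P, where NDUFA4L2 had 1 to 3 reads, KRT19 1 to 14 and EPCAM 11 to 25, against at least 91, 4915 and 207 in CAKI-1, and LHX1 had at most 58 reads in either line. Of 10 markers of blood, endothelial, fibroblast and muscle cells, the blood and endothelial ones had at most 12 reads in any library and CD3E, LYZ and CDH5 were not among the genes tested in either line. Their summed level was 5.61 and 5.61 RPM (reads per 1000000 reads on listed genes) without BCAA and 7.16 and 6.59 with BCAA in 769-P. In CAKI-1 it was 2517 and 2941 without and 3729 and 3116 with BCAA, almost all of it from the collagen gene COL1A1. The other collagen marker, COL3A1, had 4 and 0 reads in CAKI-1 with BCAA and 0 and 0 without. It was not among the genes listed for 769-P. The muscle marker DES had 0 and 0 reads in CAKI-1 with BCAA and 3 and 0 without, and 7 to 17 in 769-P. The pericyte and fibroblast receptor PDGFRB had 959 and 715 reads in CAKI-1 without and 1652 and 1406 with BCAA (log2 fold change 0.58, adjusted p = 0.0064 by limma). In 769-P, PDGFRB had 27 and 40 reads without and 200 and 178 with BCAA (log2 fold change 1.88, adjusted p = 8.4e-05). The part of these cells or transcripts in the results below was not tested. In bulk RNA, fewer cells of a kind and less RNA per cell cannot be told apart.

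The carriers differ in what they move. SLC7A11 (xCT) pairs with the heavy chain SLC3A2 and takes up cystine in exchange for glutamate, which feeds glutathione synthesis. SLC7A1 (CAT1) brings in arginine and lysine. SLC38A1 and SLC38A2 (SNAT1 and SNAT2) load the cell with glutamine, alanine and other small neutral amino acids by sodium cotransport, and SLC1A4 and SLC1A5 (ASCT1 and ASCT2) exchange serine, alanine, threonine and, for SLC1A5, glutamine. SLC6A9 (GLYT1) is a glycine carrier, and SLC36A1 and SLC36A4 (PAT1 and PAT4) are proton-coupled carriers found largely on lysosomal and other internal membranes. When amino acids run short, uncharged tRNA activates the kinase GCN2 and the transcription factor ATF4 accumulates. ATF4 binds, with C/EBP partners, elements that contain the core letters TGATGNAA, and SLC7A11 is also a target of the oxidative stress factor NRF2.

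To show where such letters lie, the start regions of the carriers were taken from RefSeq (GRCh38.p14), each from 250 bases before to 50 bases after a start. The 14 regions covered 8 of the 10 genes, with none for SLC7A11 or SLC7A3. The core TGATGNAA, searched on both strands, was in 4 of the 14 regions, 1 each of SLC1A4, SLC1A5, SLC7A1 and SLC38A1, and in 1270 of 35116 regions of the same length across the genome (3.62%). The matches are printed 5′ to 3′ on the strand of the gene with 11 bases on either side and the matching letters in capitals. The SLC1A4 match reads on the opposite strand and starts 7 bases before a RefSeq start that lies 922 bases inside the annotated gene, at chr2:64989381-64989410 (plus strand). The SLC1A5 match starts 97 bases before a start 3780 bases inside the gene, at chr19:46784893-46784922 (minus strand), and that of SLC38A1 starts 4 bases before a start 3501 bases inside the gene, at chr12:46266502-46266531 (minus strand). The SLC7A1 match lies at chr13:29595663-29595692 (minus strand) and begins at base 8 from the outermost start of the gene.
SLC1A4: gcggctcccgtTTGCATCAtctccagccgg
SLC1A5: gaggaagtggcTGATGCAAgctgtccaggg
SLC38A1: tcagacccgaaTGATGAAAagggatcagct
SLC7A1: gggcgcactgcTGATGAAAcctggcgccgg
SLC1A5 and SLC38A1 have other start regions without these letters, 2 and 1 respectively, and SLC1A4 has 1. No such letters were found in the regions of SLC6A9, SLC36A1, SLC36A4 and SLC38A2, which says nothing of sites elsewhere. The antioxidant response core TGACNNNGC was in 2 of the 14 regions, 1 of SLC7A1 and 1 of SLC1A5, and in 4687 of 35116 regions overall (13.3%). These matches are a description of the letters and not of binding.

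Most of these carrier transcripts were lower with BCAA in 769-P. Of the 9 genes, 8 were lower with BCAA at an adjusted p under 0.05, where 18.2% of all 22391 tested genes were, and none was higher, where 20.3% were. SLC36A4 was the exception. The carriers were chosen with earlier results of these data known, so their counts beside these shares are a description and not a test. The median log2 fold change (with minus without BCAA) was -1.08 over the 9 genes and -0.02 over all tested genes. In CAKI-1, 1 of the 9 genes was lower (SLC6A9) and 1 higher (SLC1A5), where 9.05% and 10.8% of 21347 tested genes were, and the median was 0.05 beside -0.01 over all tested genes. The calls of SLC6A9 and SLC36A1 in 769-P were each lost when any 1 library of that line was left out. With any 1 CAKI-1 library left out, no gene of CAKI-1 was called at all. The loss of the CAKI-1 calls of SLC6A9 and SLC1A5 there was thus fixed in advance and is not particular to these genes. Calls rest on limma with an intensity trend, fitted over all genes of a line on log2(value + 1), with Benjamini-Hochberg adjustment. With 2 libraries against 2, a permutation test of a single gene cannot give a p below 0.333.

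**Figure D1:**
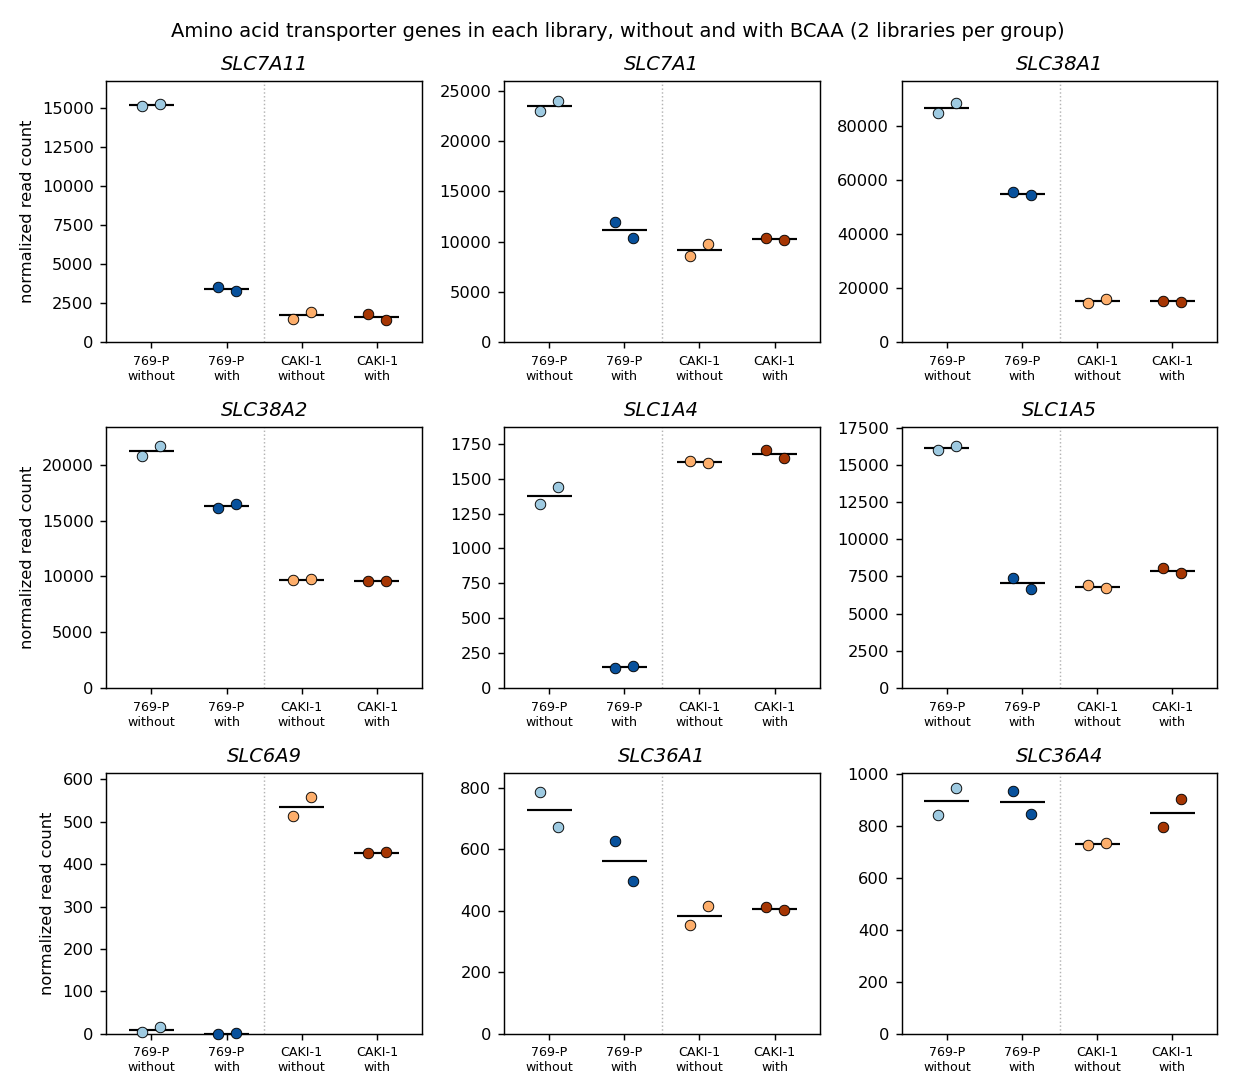
Normalized read count (vertical axes, from 0) of each of the 9 carrier genes in the 8 libraries, with each point a library and each bar the mean of 2. Values were scaled separately for 769-P (blue) and CAKI-1 (orange), so only points on the same side of the dotted line share a scale. In 769-P the libraries with BCAA lie below those without for all genes but SLC36A4, by a wide margin for SLC1A4 (140 and 156 against 1317 and 1441). The share of all genes whose libraries separate in this way was not counted. The CAKI-1 groups lie close together, yet they also separate for 2 genes with BCAA lower and for 4 with BCAA higher. Separation of 2 libraries from 2 is thus a description and not a test.

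SLC7A11, the cystine/glutamate exchanger (ENSG00000151012, chromosome 4, 138164097 to 138242349, minus strand, GRCh38), held 3514 and 3255 normalized reads in 769-P with BCAA and 15113 and 15225 without. The groups were far apart and each pair of libraries was close. The transcript was thus 4.48-fold more abundant without BCAA (log2 fold change with minus without -2.165, SE 0.05, adjusted p = 5.7e-11 by limma), and only 1.27% of tested genes fell further. In CAKI-1 it held 1794 and 1419 with BCAA and 1504 and 1925 without, which overlapped (log2 fold change -0.09, 95% CI -0.37 to 0.18, adjusted p = 0.67). The effect was further down in 769-P than in CAKI-1 (769-P minus CAKI-1 -2.07 on the log2 scale, SE 0.16, adjusted p = 8.2e-07, interaction term). The antisense gene SLC7A11-AS1 overlaps 865 bases of SLC7A11 exon on the opposite strand and had at most 22 reads in a library. The strand used in counting is not stated in the sources used here, so reads of an overlapping pair cannot be told apart.

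The heavy chain SLC3A2, which SLC7A11 needs to reach the membrane, was also lower with BCAA in 769-P. It held 6346 and 6018 normalized reads in 769-P with BCAA and 24145 and 24137 without, and in CAKI-1 10630 and 11151 with and 11103 and 11279 without. The log2 fold change was -1.97 in 769-P (adjusted p = 4.6e-11) and -0.04 in CAKI-1 (adjusted p = 0.68). SLC3A2 is also the partner of the system L light chain SLC7A5, whose log2 fold change was -2.80 in 769-P and 0.44 in CAKI-1.

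Among the cationic carriers, SLC7A1 (ENSG00000139514, chromosome 13, 29509410 to 29595688, minus strand) was measured. It held 11922 and 10372 normalized reads in 769-P with BCAA and 22965 and 23984 without. Both libraries without BCAA were above both with, and the transcript was 2.11-fold more abundant without BCAA (log2 fold change -1.08, SE 0.06, adjusted p = 3.6e-08). In CAKI-1 it held 10330 and 10164 with BCAA and 8532 and 9792 without, the other order, though the difference did not pass the threshold (log2 fold change 0.16, 95% CI 0.02 to 0.31, adjusted p = 0.12). The lines differed by -1.24 (SE 0.10, adjusted p = 1.5e-06). When 769-P without BCAA replicate 1 or replicate 2 was left out, the fall in 769-P kept its size (-1.11 and -1.05) with an adjusted p of 0.0520 and 0.0524.

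Both sodium-coupled neutral carriers were lower with BCAA in 769-P, by less than SLC7A11 or SLC7A1 in fitted size. Their genes are neighbours on chromosome 12, SLC38A1 (ENSG00000111371) from 46183063 to 46270017 and SLC38A2 (ENSG00000134294) from 46358189 to 46372867, both on the minus strand with 88171 bases between them. SLC38A1 held 55748 and 54394 normalized reads in 769-P with BCAA and 84947 and 88442 without. It was the most abundant carrier of the set in this line and was 1.57-fold higher without BCAA (log2 fold change -0.65, SE 0.04, adjusted p = 6.1e-08). SLC38A2 held 16139 and 16486 with and 20784 and 21693 without BCAA, a 1.3-fold difference (log2 fold change -0.38, SE 0.04, adjusted p = 1.2e-05).

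In CAKI-1 neither neutral carrier of this pair passed the test. SLC38A1 held 15342 and 14942 normalized reads with BCAA and 14366 and 16137 without (log2 fold change -0.01, 95% CI -0.15 to 0.13, adjusted p = 0.95). SLC38A2 held 9619 and 9621 with and 9638 and 9774 without (log2 fold change -0.01, 95% CI -0.13 to 0.10, adjusted p = 0.90). The effects differed between the lines by -0.65 for SLC38A1 (SE 0.08, adjusted p = 5.4e-05) and -0.37 for SLC38A2 (SE 0.06, adjusted p = 0.00090). The call of SLC38A2 in 769-P was lost without the intensity trend (adjusted p = 0.060) and without 769-P with BCAA replicate 1, 769-P without BCAA replicate 1 or 769-P without BCAA replicate 2 (log2 fold changes -0.37, -0.41 and -0.35, adjusted p = 0.054, 0.053 and 0.056). The log2 values of both genes in CAKI-1 turned positive under median centring (0.03 each).

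SLC1A4, the exchanger of serine, alanine and threonine (ENSG00000115902, chromosome 2, 64988477 to 65023865, plus strand), had the largest fitted change of the 9. It held 140 and 156 normalized reads in 769-P with BCAA, from 184 and 183 reads, and 1317 and 1441 without, from 1060 and 1178 reads. The transcript was 9.31-fold more abundant without BCAA (log2 fold change -3.21, SE 0.11, adjusted p = 7.5e-10), and only 0.174% of the tested genes fell further. In CAKI-1 the 4 libraries lay between 1615 and 1704 (log2 fold change 0.05, 95% CI -0.11 to 0.20, adjusted p = 0.71). The lines differed by -3.26 (SE 0.12, adjusted p = 1.4e-09). In RPM, SLC1A4 stood at 2.86 and 3.28 in 769-P with BCAA, at 27.1 and 29.4 in 769-P without, and between 40.5 and 43.3 in CAKI-1.

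SLC1A5, which also carries glutamine (ENSG00000105281, chromosome 19, 46774883 to 46788594, minus strand), moved in both lines and in opposite directions. In 769-P it held 7376 and 6682 normalized reads with BCAA and 15982 and 16251 without, 2.29-fold more (log2 fold change -1.20, SE 0.05, adjusted p = 4.6e-09). In CAKI-1 it held 8062 and 7738 with BCAA and 6897 and 6715 without, 1.16-fold higher with BCAA (log2 fold change 0.21, SE 0.06, adjusted p = 0.019). The difference between the lines was -1.41 (SE 0.08, adjusted p = 4.1e-08). The CAKI-1 rise no longer passed under quantile normalization (0.17, adjusted p = 0.085). It also did not pass without the intensity trend (adjusted p = 0.25) or with any 1 of the 4 CAKI-1 libraries left out. No gene of CAKI-1 was called in those fits, so they could not keep this call. The log2 fold change was 0.19 without CAKI-1 with BCAA replicate 1 and 0.24 without CAKI-1 with BCAA replicate 2. It was 0.23 without CAKI-1 without BCAA replicate 1 and 0.20 without CAKI-1 without BCAA replicate 2.

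SLC6A9, the glycine carrier (ENSG00000196517, chromosome 1, 43991500 to 44031467, minus strand), was nearly silent in 769-P and expressed in CAKI-1. The 769-P libraries held 0 and 1 read with BCAA and 3 and 13 without. By size factor the rate without BCAA was 24.5 times that with BCAA, with an exact 95% interval of 3.81 to 1029 that covers counting error only. The fitted log2 fold change was -2.71 (SE 0.89, adjusted p = 0.030), a size set largely by the pseudocount (-4.66 at 0.1 and -0.86 at 10). The call was lost in 5 of the 10 other settings in which the gene was tested and without each of the 4 libraries in turn (adjusted p = 0.30 without 769-P with BCAA replicate 1, 0.21 without replicate 2 of that group, 0.076 without 769-P without BCAA replicate 1 and 0.17 without its replicate 2). In CAKI-1, SLC6A9 held 426 and 428 normalized reads with BCAA and 513 and 558 without, 1.26-fold more without BCAA (log2 fold change -0.33, SE 0.10, adjusted p = 0.048). This call held in 2 of 12 other settings (adjusted p from 0.036 to 0.70). With any 1 of the 4 CAKI-1 libraries left out the log2 fold change lay between -0.39 and -0.27. No gene of CAKI-1 was called in those fits or without the intensity trend, so the call could not hold there. The difference between the lines was -2.39 (SE 0.71, adjusted p = 0.029). It passed in 7 of 10 other settings (-4.34 to -0.54; adjusted p = 0.36 with a pseudocount of 10, 0.17 without the trend and 0.052 with thinned reads). With 1 of the 8 libraries left out it passed in 2 cases, and it was lost without 769-P with BCAA replicate 1 (-1.94, adjusted p = 0.099), without 769-P without BCAA replicate 2 (-1.47, adjusted p = 0.095) and without any of the 4 CAKI-1 libraries (-2.45 to -2.33, adjusted p = 0.076 to 0.097). CCDC24 overlaps 404 bases of SLC6A9 on the opposite strand and had 247 to 322 reads in 769-P and 113 to 152 in CAKI-1, so the source of the few 769-P reads cannot be told apart.

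Of the proton-coupled pair, SLC36A1 (ENSG00000123643, chromosome 5, 151437046 to 151492381, plus strand) held 626 and 499 normalized reads in 769-P with BCAA and 787 and 671 without. The groups did not overlap, yet the gap between them was smaller than the gap within either (log2 fold change -0.38, SE 0.12, adjusted p = 0.025). The call was lost with no filter on low values, under quantile normalization, without the trend and with reads thinned to equal depth (adjusted p = 0.11, 0.088, 0.24 and 0.14). It was also lost without 769-P with BCAA replicate 1 or 2 (-0.54 and -0.22) and without 769-P without BCAA replicate 1 or 2 (-0.26 and -0.49). In CAKI-1 it held 412 and 402 with and 354 and 414 without (log2 fold change 0.09, 95% CI -0.18 to 0.35, adjusted p = 0.68). The lines differed by -0.47 (95% CI -0.86 to -0.07), which did not pass after adjustment (adjusted p = 0.092) except without 769-P with BCAA replicate 1 (-0.63, adjusted p = 0.041).

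SLC36A4 (ENSG00000180773, chromosome 11, 93144171 to 93197964, minus strand) held 936 and 845 normalized reads in 769-P with BCAA and 842 and 947 without, which overlapped (log2 fold change -0.01, 95% CI -0.20 to 0.19, adjusted p = 0.97). In CAKI-1 both libraries with BCAA, at 797 and 905, were above those without, at 727 and 735. That difference did not pass the threshold (log2 fold change 0.22, 95% CI 0.01 to 0.42, adjusted p = 0.13). The lines did not differ past the threshold either (-0.22, 95% CI -0.51 to 0.07, adjusted p = 0.28).

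**Figure D2:**
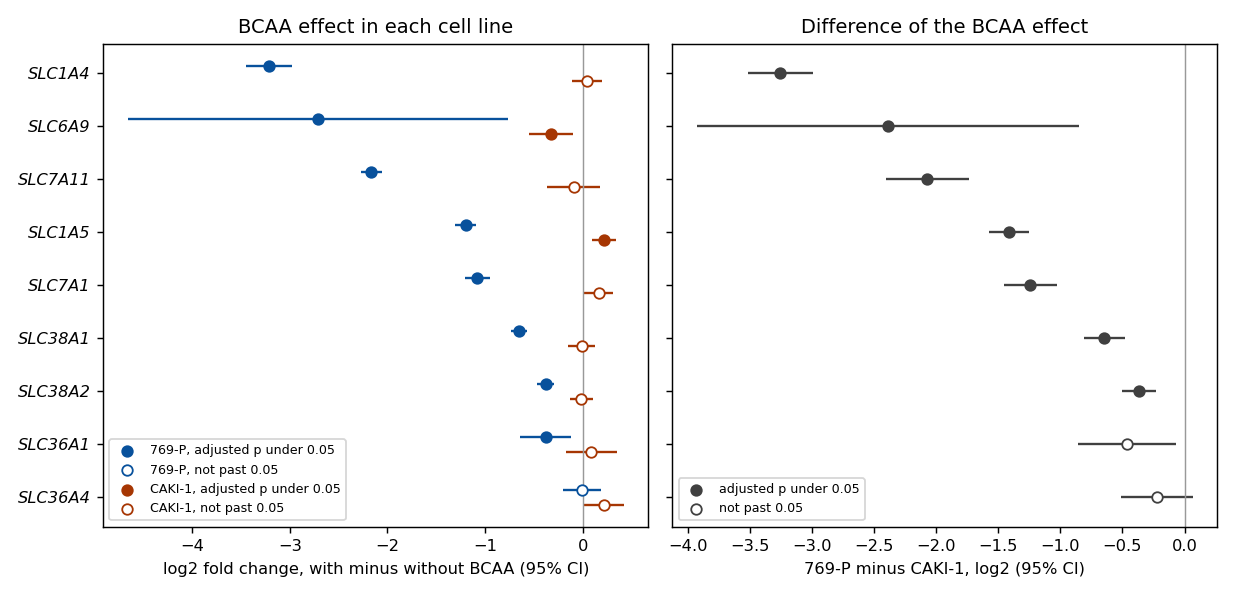
Left, log2 fold change (with minus without BCAA) of the 9 genes in 769-P (blue) and CAKI-1 (orange); right, the difference of the 2 effects. Bars are 95% confidence intervals from limma and filled points have an adjusted p under 0.05. The 769-P points run from -3.21 for SLC1A4 to -0.01 for SLC36A4 and the CAKI-1 points stay between -0.33 and 0.22, with 7 of 9 differences filled.

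Set beside each other, 7 of the 9 genes had an effect further down in 769-P than in CAKI-1 at an adjusted p under 0.05, where 10.1% of the 19406 genes tested in both lines were, and none had one further up, where 10.9% were. The count was 5 without the intensity trend, where SLC38A2 (adjusted p = 0.053) and SLC6A9 did not pass. SLC6A9 also did not pass with a pseudocount of 10 (adjusted p = 0.36) or with reads thinned to equal depth (adjusted p = 0.052). With 1 library left out its difference ran from -3.31 to -1.47, and as given above it was lost in most of these cases. The median difference was -1.24. Of the 8 genes lower in 769-P, 5 changed at least 2-fold there, where 4.34% of the tested genes did so downward. At a stricter adjusted p of 0.01, 6 were lower in 769-P, where 13.3% of the tested genes were. With reads thinned to 30979773 in every library, which evens out the depth, 6 genes were lower in 769-P, where 17.5% of 20875 tested genes were, all but SLC36A4, SLC36A1 and SLC6A9 (adjusted p = 0.14 and 0.067 for the last pair).

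Together the 9 transcripts made up 3354 and 3437 RPM in 769-P without BCAA and 1979 and 1941 with it. In CAKI-1 they made up 1117 and 1196 without and 1231 and 1207 with BCAA. SLC38A1 alone gave between 52.2% and 58.7% of this sum in 769-P and between 31.6% and 33.9% in CAKI-1.

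Divided by exon length, which allows one gene to be set against another, the levels spanned a wide range within each line. In 769-P with BCAA, SLC38A1 led with 5499 ± 96 normalized reads per kb (SD, n = 2), followed by SLC38A2 (2471 ± 37), SLC1A5 (2110 ± 147), SLC7A1 (1449 ± 143) and SLC7A11 (351 ± 19). SLC36A4 (92.0 ± 6.7) and SLC36A1 (80.6 ± 12.9) overlapped, and SLC1A4 (21.3 ± 1.7) and SLC6A9 (0.083 ± 0.117) came last. Without BCAA the order in 769-P changed in several places. SLC1A5 (4837 ± 57) stood above SLC38A2 (3217 ± 97), and SLC1A4 (199 ± 13) stood above SLC36A1 (105 ± 12) and SLC36A4 (92.3 ± 7.6), of which the latter pair overlapped. SLC7A11 without BCAA reached 1573 ± 8, a level exceeded by 6.11% of listed genes, and with BCAA its level was exceeded by 22.8%.

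In CAKI-1 the order was led by SLC1A5 in both conditions, at 2371 ± 69 per kb with BCAA and 2043 ± 39 without. SLC38A1 (1512 ± 28 with, 1523 ± 125 without) and SLC38A2 (1457 ± 0.28 with, 1470 ± 15 without) followed and overlapped without BCAA, and they changed places when the longest transcript was used as the length. SLC7A1 (1332 ± 15 with, 1191 ± 116 without), SLC1A4 (241 ± 6.0 with, 234 ± 1.5 without) and SLC7A11 (167 ± 28 with, 178 ± 31 without) came next. SLC36A4, SLC6A9 and SLC36A1 closed the order, between 55.0 and 104 per kb, with SLC6A9 above SLC36A4 without BCAA and overlapping its range with BCAA.

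**Figure D3:**
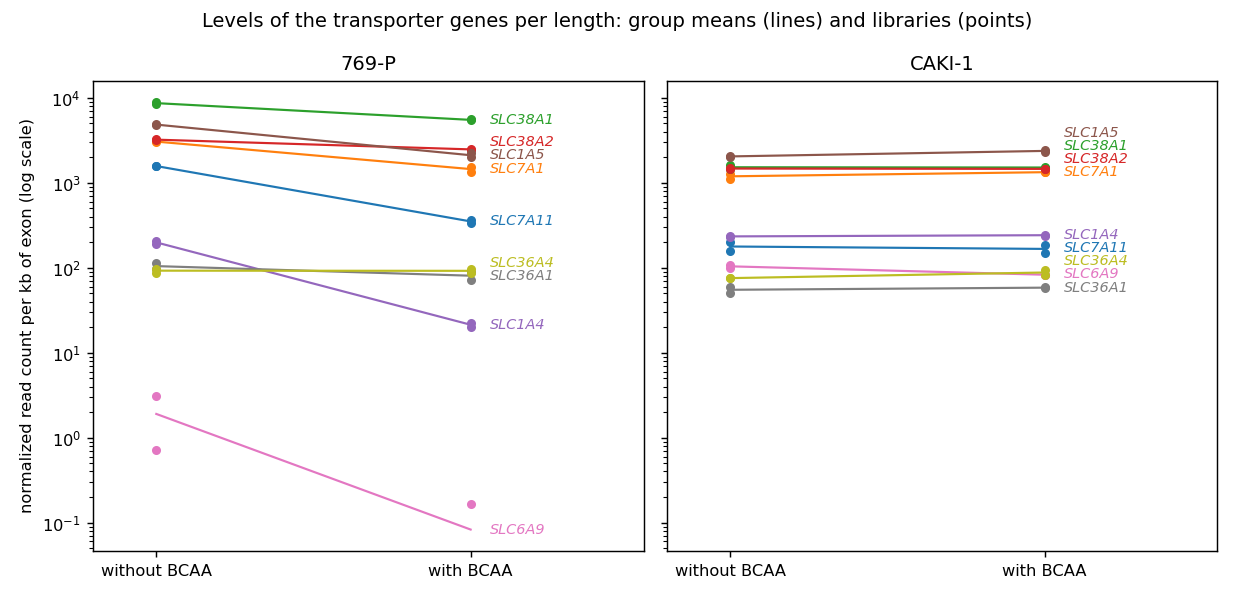
Normalized read count per kb of exon (log axis) of the 9 genes without and with BCAA, in 769-P (left) and CAKI-1 (right). Lines join the means of 2 libraries and points are libraries; the 769-P library with 0 reads of SLC6A9 has no point on a log axis. In 769-P the SLC1A4 line crosses those of SLC36A1 and SLC36A4, going from 199 to 21.3 per kb, while the CAKI-1 lines run nearly level.

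The levels in both lines are given side by side in RPM, without a test because the tables were scaled separately. SLC6A9 stood between 0 and 0.324 in the 769-P libraries and between 10.8 and 14 in those of CAKI-1. SLC7A11 stood at 311 and 310 in 769-P without BCAA, at 72.1 and 68.2 with BCAA, and between 36.2 and 48.3 in CAKI-1. SLC36A4 was alike, between 17.4 and 19.3 in 769-P and between 18.4 and 23.1 in CAKI-1.

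The genes whose pattern over the 8 libraries was most like that of SLC7A11 were found by the Pearson correlation of log2(value + 1), centred within each line, among 10881 genes with a mean of at least 100 in both tables. These were CFLAR (r = 0.998, a caspase-8 regulator), KLF7 (0.998, a transcription factor), XPOTP1 (0.996, a pseudogene whose reads could come from the tRNA exporter gene XPOT), ETV3 (0.995, a transcriptional repressor) and AKAP12 (0.994, a scaffold of protein kinase A). The correlation reflects a fall in 769-P next to little change in CAKI-1, and the libraries of 769-P share the tie of depth to condition. The log2 fold change of AKAP12 was -1.52 in 769-P and -0.17 in CAKI-1, and that of KLF7 -1.24 and 0.02. XPOTP1 had -1.07 and 0.03, CFLAR -0.57 and -0.01, and ETV3 -0.34 and 0.01. Beside -2.165 for SLC7A11 in 769-P, the likeness is thus one of shape and not of size. Of the other carriers, SLC38A1 (r = 0.99) was the ninth most alike, SLC1A4 (0.98) ranked 80, SLC38A2 (0.98) 116, SLC7A1 (0.97) 218, SLC1A5 (0.96) 348 and SLC36A1 (0.78) 2079. SLC36A4 (-0.04) did not follow SLC7A11, and SLC6A9 (0.87) was too low in 769-P to be ranked.

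Other genes of the same pathways were taken from fixed lists, also chosen with earlier results of these data known. To set beside the counts of every list, 18.2% of all tested genes were lower and 20.3% higher in 769-P. In CAKI-1 these shares were 9.05% and 10.8%. Of 37 further carriers and heavy chains of the plasma membrane, 19 were tested in 769-P, of which 4 were lower and 5 higher with BCAA (median log2 fold change 0.03), and 23 in CAKI-1, of which 2 were lower and 5 higher (median 0.31). The falls were led by SLC7A5 (-2.80 in 769-P), the neutral carrier SLC6A15 (-2.44 in 769-P and -0.48 in CAKI-1) and SLC3A2. The rises were led by SLC38A11 (1.98 in 769-P), the glutamate carrier SLC1A3 (1.25 in CAKI-1) and the cationic carrier SLC7A2 (1.16 in 769-P and 0.31 in CAKI-1). The fewest and most reads in a single library were 3 and 30 for SLC38A11 in 769-P and 18 and 74 for SLC1A3 in CAKI-1. For SLC7A2 in 769-P they were 28 and 107. SLC7A2 thus moved up in 769-P where the other cationic carrier SLC7A1 moved down.

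Of 16 carriers of the lysosome and mitochondria, 15 were tested in each line, with 4 lower and 4 higher in 769-P and none lower and 7 higher in CAKI-1 (medians -0.04 and 0.24). In 769-P the lysosomal exporters SLC66A1 (-0.40) and CTNS (-0.33), which release cationic amino acids and cystine, were lower. The mitochondrial serine carrier SFXN1 rose in both lines (0.89 in 769-P and 0.73 in CAKI-1), as did the aspartate/glutamate carrier SLC25A13 (0.52 and 0.41).

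The non-transporter genes of the amino acid response, such as asparagine synthetase, were mostly lower with BCAA in 769-P, where 18.2% of all tested genes were. Of 25 genes, 22 were lower and 2 higher with BCAA in 769-P (median -1.92), and of 24 tested in CAKI-1, 11 were lower and 4 higher (median -0.28). The falls were led by CHAC1, which degrades glutathione (-3.74 in 769-P and -0.26 in CAKI-1, adjusted p = 0.20 in the latter), and PCK2, the mitochondrial PEP carboxykinase (-3.23 and -0.47). ATF5 was higher in 769-P (0.41) and PSPH, of serine synthesis, in CAKI-1 (0.40) while lower in 769-P (-0.73). In 21 of 24 genes the effect was further down in 769-P at an adjusted p under 0.05, and in 1 it was further up. Of all genes tested in both lines, 10.1% were further down and 10.9% further up.

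Around cystine, the substrate of SLC7A11, no single direction held. Of 12 genes of cystine use and glutathione synthesis, 6 were lower and 4 higher in 769-P and 2 lower and 2 higher in CAKI-1 (medians -0.34 and -0.11). CBS, which makes cystathionine, was lower in 769-P (-1.16), whereas the glutathione-degrading enzyme CHAC2 rose in both lines (1.25 in 769-P and 0.99 in CAKI-1) and the glutathione reductase GSR rose in 769-P (0.75). Of 18 NRF2 target genes, 8 were lower and 2 higher in 769-P and 5 lower and 3 higher in CAKI-1 (medians -0.11 and -0.07). HMOX1 (-1.35 and -0.72) and FTH1 (-1.25 and -0.49) were lower in both lines, PGD was higher in 769-P (0.53) and AKR1C2 in CAKI-1 (0.87).

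Of 16 enzymes that use glutamine, arginine or glycine, all were tested in 769-P, with 4 lower and 4 higher (median 0.07), and 13 in CAKI-1, with none lower and 4 higher (median 0.14). ODC1, which makes polyamines from ornithine (-1.18), and ASS1, of arginine synthesis (-1.08), were lower in 769-P. SHMT1, which interconverts serine and glycine, rose in both lines (1.53 in 769-P and 0.76 in CAKI-1), and the glycine decarboxylase GLDC rose in 769-P (1.0).

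**Figure D4:**
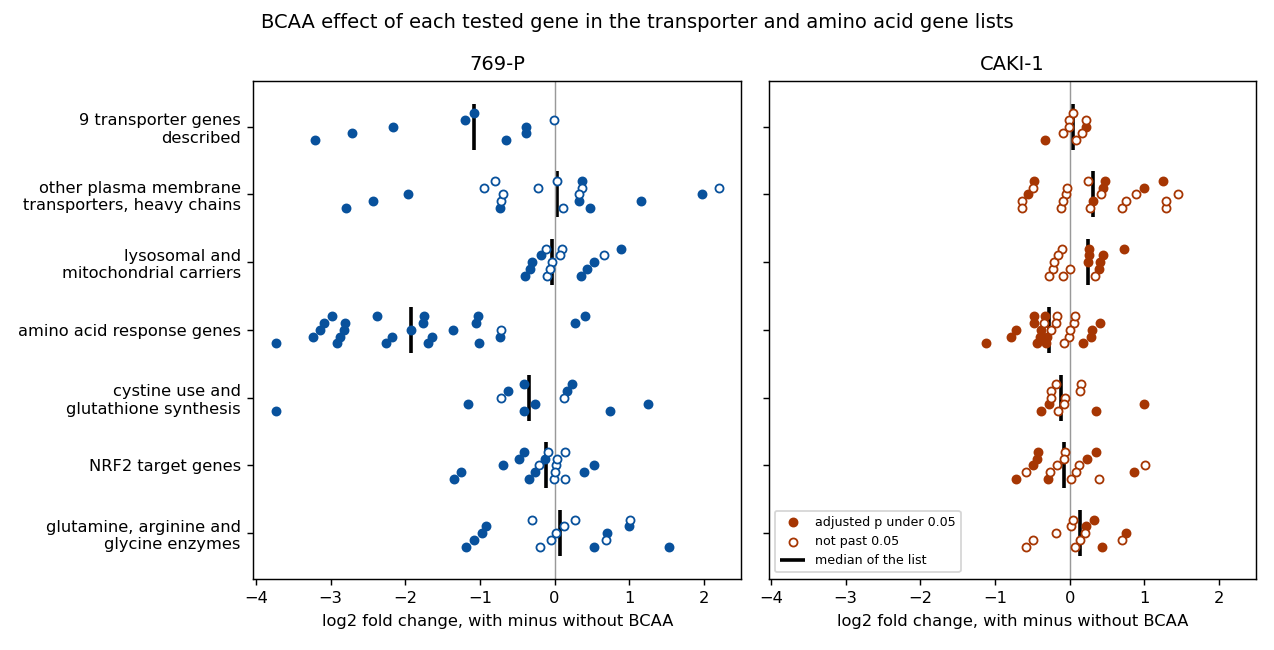
Log2 fold change (with minus without BCAA) of every tested gene of the 9 carriers and of 6 lists, in 769-P (left) and CAKI-1 (right). Filled points have an adjusted p under 0.05, the black bar is the median of the list, and the vertical offset within a list only separates points. In 769-P the carriers (median -1.08) and the amino acid response genes (median -1.92) lie mostly to the left of 0, and the other lists lie on both sides of it.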

How the data were processed

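Libraries of total RNA were grouped by the cell line and treatment in their labels. The submitters' processing notes name Trim Galore, TopHat2 2.1.0, SAMtools 1.3.1, HTSeq 0.6.0, DESeq, DESeq2 and hg38. The annotation and the strand setting are not given in the sources used here. For each line the authors deposited 1 table of signal (reads of a gene over a size factor per library), limited to genes with at least 2 reads over 4 libraries. All values (100%) were whole multiples of 1 read within a relative tolerance of 1e-06, so reads were recovered. GENCODE 29 gave symbols for 25032 of 25431 and 23881 of 24190 identifiers, exon lengths and coordinates.

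Genes with a mean of at least 1 were tested with limma 3.58.1 (R 4.3.3) on log2(value + 1), adjusted by Benjamini-Hochberg over all genes of a line. Folds on this scale understate the change of low genes. The difference between the lines was the interaction term of 1 fit over 8 libraries. Replicates differed by more than sampling noise (chi-square per degree of freedom 3.26 to 11.9). edgeR 4.0.16 and DESeq2 1.42.0 on recovered reads, other pseudocounts, filters, scalings and depths, and each library left out, were alternatives. The tests were tried on simulated data. The carriers and lists were chosen with earlier results of these data known. All carriers were described. From each list, at most 3 called genes with the largest fall and 3 with the largest rise in either line were named (2 each in the lists other than plasma membrane carriers), and the 5 genes most like SLC7A11.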

Additional observations from a re-analysis of the deposited data

Results flagged for a closer look

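The BCAA effect differed between the lines by the interaction term of limma (769-P minus CAKI-1, log2 scale, adjusted p under 0.05) for 7 carriers, namely SLC1A4 (-3.26), SLC6A9 (-2.39), SLC7A11 (-2.07), SLC1A5 (-1.41), SLC7A1 (-1.24), SLC38A1 (-0.65) and SLC38A2 (-0.37). SLC6A9 rests on 17 reads in 769-P.

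Among the other genes named, the difference was below 0 for CHAC1 (-3.48), SLC7A5 (-3.24), PCK2 (-2.76), SLC6A15 (-1.96), SLC3A2 (-1.93), ODC1 (-1.19), PSPH (-1.13), CBS (-0.91), FTH1 (-0.76), AKR1C2 (-0.73) and HMOX1 (-0.63). It was above 0 for SLC7A2 (0.86), SHMT1 (0.77), PGD (0.70), GSR (0.61) and ATF5 (0.42).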

How the results depend on the processing

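The falls of SLC7A11, SLC1A4, SLC1A5, SLC7A1 and SLC38A1 in 769-P passed the threshold in all 12 other settings tried, and all of these but that of SLC7A1 also without any 1 library. The number of carriers called lower in 769-P was 5 without the intensity trend and 5 with a 2-fold minimum, and lay between 4 and 6 with 1 library left out; fewer libraries were tested there. The call of SLC6A9 in CAKI-1 was lost (0 carriers lower) with a pseudocount of 0.1 or 10, no filter, median centring, quantile normalization, no trend, DESeq2, the spread over 8 libraries, thinned reads, an adjusted p of 0.01, a 2-fold minimum and each library left out (0 to 0). The rise of SLC1A5 in CAKI-1 was lost (0 carriers higher) under quantile normalization, an adjusted p of 0.01 and a 2-fold minimum. It was also lost with no trend and with each library left out, where no gene of CAKI-1 was called and no call could hold. The same applies to the call of SLC6A9 in CAKI-1 in these fits. Where not stated otherwise the cause was not tested. Values near 0 changed sign under median centring for SLC36A4 in 769-P (0.035) and for SLC38A1 (0.033) and SLC38A2 (0.028) in CAKI-1, and with edgeR for SLC36A4 in 769-P (0.017). With 1 library left out, the sign also changed within the ranges of SLC36A4 in 769-P (-0.090 to 0.079) and, in CAKI-1, of SLC7A11 (-0.27 to 0.085), SLC38A1 (-0.092 to 0.076) and SLC36A1 (-0.027 to 0.20). None of these passed a threshold. Median centring raised every log2 fold change by 0.04 in both lines.

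Samples with the same replicate number deviated together little over all tested genes (r = 0.0095 in 769-P and 0.021 in CAKI-1). Among genes with a mean of at least 100, r was -0.088 in 769-P and 0.061 in CAKI-1. The numbers were therefore not taken as pairs. With a replicate block, 8 carriers were lower in 769-P, 0 were lower and 1 was higher in CAKI-1, where SLC6A9 had an adjusted p of 0.067, and 7 differed between the lines.

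Over the alternatives, 31 counts of called genes in the fixed lists moved by over 1.5 times and 257 did not. Without the intensity trend no gene of CAKI-1 was called (0 of 21347 by limma, with 4796 at an unadjusted p under 0.05), so all list counts there were 0, and 1657 of 22391 genes were called lower and 2001 higher in 769-P. In that setting the 769-P calls went to 1 higher among the further plasma membrane carriers, to 0 lower and 2 higher among lysosomal and mitochondrial carriers, to 2 lower and 2 higher around cystine, to 3 lower and 1 higher among NRF2 targets and to 0 higher in the amino acid response, where 22 were still lower. Quantile normalization gave 4 higher lysosomal and mitochondrial carriers and 7 lower amino acid response genes in CAKI-1, and median centring 2 lower lysosomal and mitochondrial carriers in 769-P. The other counts that moved were in CAKI-1 and changed by 1 to 3 genes. With any 1 CAKI-1 library left out, again 0 of 21347 genes were called in CAKI-1 by limma, with 4084 to 5590 at an unadjusted p under 0.05.

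At 2 libraries a group, the result for SLC6A9 in 769-P rests on few reads, with at most 13 in a library. The 769-P libraries with BCAA, the deepest of the series, held 0 and 1 read.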
